A study of Homo sapiens with 4 samples.

Results

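The outer kinetochore is the protein layer that holds spindle microtubules on mitotic chromosomes. Its core is the KMN network, made of KNL1, the MIS12 complex and the NDC80 complex, in which the NDC80 and NUF2 proteins contact the microtubule while SPC24 and SPC25 anchor the rod to the chromosome side. The SKA complex, made of SKA1, SKA2 and SKA3, is recruited onto the NDC80 complex in mitosis and helps it to stay attached to shortening microtubule ends. The transcripts followed here are those of 10 genes, taken by name as the knocked-down gene together with its kinetochore partners. They are SKA1, SKA2 and SKA3 of the SKA complex, NDC80, NUF2, SPC24 and SPC25 of the NDC80 complex, and KNL1, DSN1 and MIS12 of the remaining network. All 10 were present among the 28729 genes of the deposited table, and all 10 were among the 12645 genes with a mean of at least 1 FPKM (fragments counted on a gene, divided by its exon length and by the size of the library) that entered the test.

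The cells were TU-177, an established human laryngeal squamous cell carcinoma line. RNA-seq libraries came from 2 samples transduced with a lentiviral negative-control shRNA (NC) and 2 samples transduced with a lentiviral shRNA against SKA3 (SKA3-KD). Puromycin selection was applied to both groups, so NC carried a vector and a selection marker as well, and the RNA is that of resistant populations. How many shRNAs or independent transductions stand behind the 2 samples of a group is not given in the labels, so the p-values measure the spread between these samples, which may be technical.

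Of 7 squamous epithelial markers checked against the label of the line, KRT17 (29.4 to 49.1 FPKM over the 4 libraries) and EPCAM (2.73 to 2.95 FPKM) reached 1 FPKM in every library. The basal keratins KRT5 and KRT14 did not exceed 0.103 FPKM in any library, and TP63 did not exceed 0.580 FPKM. Of 6 fibroblast markers, DCN, COL1A1 and PDGFRB reached 1 FPKM in every library, and the summed level of the list was 15.4 and 15.8 FPKM in NC against 8.86 and 9.56 FPKM in SKA3-KD. Most of that difference lay in DCN (8.40 and 8.36 FPKM in NC, 2.48 and 2.35 FPKM in SKA3-KD), while PDGFRB was higher in SKA3-KD (2.88 and 2.46 FPKM in NC, 3.19 and 4.13 FPKM in SKA3-KD). The summed squamous list likewise stood at 49.0 and 53.0 FPKM in NC and 33.3 and 39.2 FPKM in SKA3-KD. Among 4 immune markers found in the table, LYZ was listed at 0 in all libraries and PTPRC did not exceed 0.00997 FPKM, and the endothelial markers VWF and CDH5 did not exceed 0.0683 FPKM. The part of these marker levels in the results was not tested. The steps between low FPKM values gave library sizes of 9015056 to 11966130 reads, and the 10 genes rested on 117 to 1359 reads each per library.

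The study lists sequences of knockdown reagents. It also describes stable SKA3 knockdown by Cas9 and sgRNAs, which are not shown here. An shRNA and an siRNA sequence against SKA3 are shown because SKA3 is the knocked-down gene of the set. The first is the 21-base sense stem of the shRNA that the study lists for its screen, and the second is the sense strand of its siRNA. Capitals mark the bases that pair with the guide strand's seed (bases 2 to 8 of the antisense strand).
SKA3 shRNA of the screen: gcggtacatcgtaTCCCAAGt
SKA3 siRNA: ccaccuaccaaacAAUCACUa
Both match the coding part of exon 4 of 9 in the SKA3 transcript ENST00000314759.5, on the minus strand at chr13:21168219-21168239 and chr13:21168140-21168160 of GRCh38. Each was found in 4 of 7 SKA3 transcripts of GENCODE 29 and in no transcript of another gene there. The labels do not say which shRNA sequence was in the sequenced cells.

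SKA3 was measured first as a check on the labels. It stood at 9.40 FPKM in NC 1 and 9.64 FPKM in NC 2, against 3.77 FPKM in SKA3-KD 1 and 4.12 FPKM in SKA3-KD 2. These levels rested on 343, 265, 117 and 148 reads, in the same order. Both SKA3-KD libraries lay far below both NC libraries, and the mean was 41.4% of the NC mean. SKA3 fell by 1.09 in log2(FPKM + 1), with a standard error of 0.07 (95% interval -1.28 to -0.90, adjusted p = 0.00806, limma with Benjamini-Hochberg adjustment over all genes tested). Among 12645 genes it had the negative difference of rank 106. A fold change on this scale understates that of genes with low FPKM, and limma voom on the recovered reads gave -1.26. The call did not depend on the scaling or the pseudocount, but it was lost when NC 1 or NC 2 was left out (adjusted p = 0.066 and 0.06, limma).

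Neither partner of SKA3 inside its complex was called lower. SKA2, a small subunit that builds the coiled-coil core of the complex with the others, stood at 29.9 FPKM in NC 1 and 28.2 FPKM in NC 2. It rose to 37.7 FPKM in SKA3-KD 1 and 36.6 FPKM in SKA3-KD 2. The means were 29.1 ± 1.22 FPKM in NC and 37.1 ± 0.754 FPKM in SKA3-KD (SD, n = 2 each), and the groups did not overlap. The log2 difference was 0.34 (standard error 0.06, 95% interval 0.19 to 0.50, adjusted p = 0.0329, limma). SKA1, which carries a microtubule-binding domain, stood at 7.25 and 5.41 FPKM in NC and at 7.63 and 8.08 FPKM in SKA3-KD. Both SKA3-KD libraries were above both NC libraries, but the NC libraries lay further apart than NC 1 and SKA3-KD 1, and the log2 difference of 0.28 did not pass the test (95% interval -0.06 to 0.62, adjusted p = 0.222, limma). With 256 reads in NC 1 and 144 in NC 2, the FPKM of NC 2 was 0.747 times that of NC 1, with an exact binomial 95% interval of 0.604 to 0.919 that covers counting error only. Without NC 1 the difference of SKA1 was 0.46 and without NC 2 it was 0.10.

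**Figure D1:**
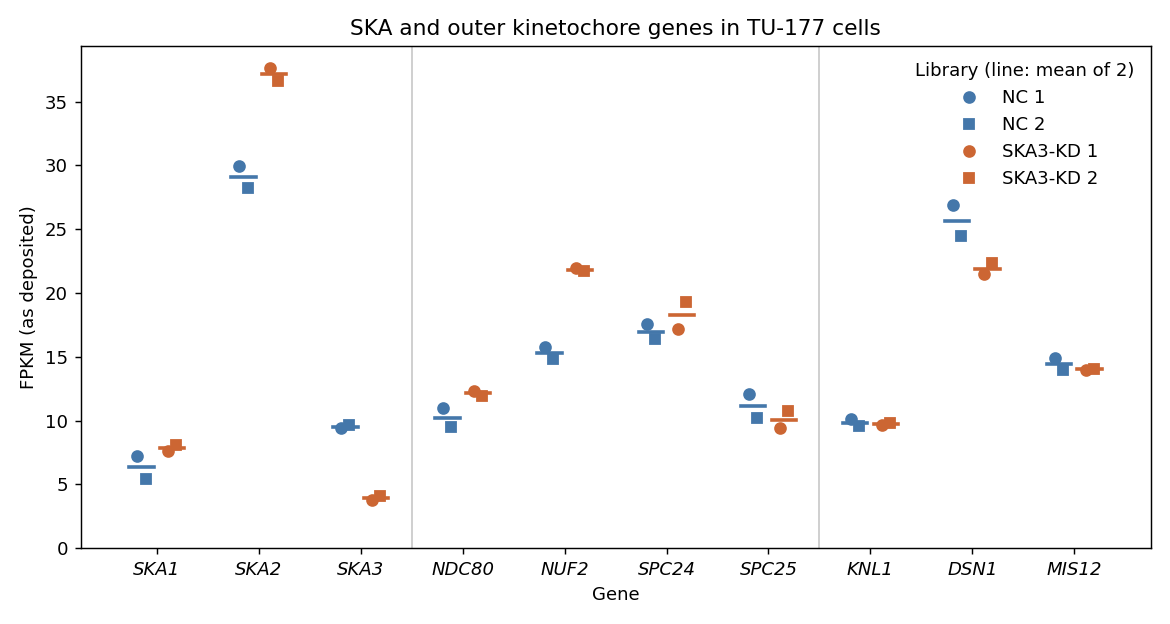
FPKM of the 10 genes (vertical axis) in the 2 NC libraries (blue) and the 2 SKA3-KD libraries (orange). Circles are replicates numbered 1, squares are replicates numbered 2, and horizontal lines are means. SKA3 drops from a mean of 9.52 to 3.94 FPKM while SKA2 and NUF2 lie higher in both SKA3-KD libraries than in both NC libraries. The same holds for SKA1 and NDC80, which did not pass the test.

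In the NDC80 complex the rise was found in NUF2. NUF2, which pairs with NDC80 along the rod and shares its microtubule-facing head, stood at 15.7 FPKM in NC 1 and 14.8 FPKM in NC 2. It was at 22.0 FPKM in SKA3-KD 1 and 21.7 FPKM in SKA3-KD 2, from 752 and 860 reads. The means were 15.3 ± 0.627 and 21.8 ± 0.203 FPKM (SD, n = 2 each), or 1.43 times higher in SKA3-KD. The log2 difference was 0.49 (standard error 0.06, 95% interval 0.33 to 0.65, adjusted p = 0.018, limma). The SKA3-KD libraries lay 0.50 and 0.48 above the NC mean. NUF2 shares 5 exon bases with an antisense gene that did not exceed 0.444 FPKM in any library.

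NDC80, the other microtubule-facing subunit and the namesake of the complex, stood at 10.98 and 9.49 FPKM in NC and at 12.3 and 11.9 FPKM in SKA3-KD. The groups did not overlap, but the difference of 0.23 did not pass (95% interval 0.01 to 0.45, unadjusted p = 0.0454, adjusted p = 0.151, limma). SPC24, which joins SPC25 at the chromosome end of the rod, stood at 17.5 and 16.4 FPKM in NC and at 17.2 and 19.3 FPKM in SKA3-KD. Its groups overlapped, with a difference of 0.10 (95% interval -0.11 to 0.31, adjusted p = 0.458, limma). SPC25 stood at 12.1 and 10.2 FPKM in NC and at 9.45 and 10.7 FPKM in SKA3-KD. Its groups overlapped as well, with a difference of -0.13 (95% interval -0.41 to 0.14, adjusted p = 0.447, limma). The differences of these subunits from NUF2 were not tested.

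KNL1, MIS12 and DSN1, the genes of the set that link the NDC80 complex to the centromere and to the checkpoint, were not called in either direction. KNL1, the large scaffold on which checkpoint proteins dock, stood at 10.1 and 9.55 FPKM in NC and at 9.63 and 9.82 FPKM in SKA3-KD, from 882 to 1239 reads. Both SKA3-KD values lay between the NC values, and the difference was -0.01 with a 95% interval of -0.18 to 0.16 (adjusted p = 0.92, limma). MIS12, a subunit of the complex of that name, stood at 14.9 and 14.0 FPKM in NC and at 14.0 FPKM in both SKA3-KD libraries, a difference of -0.04 with a 95% interval of -0.20 to 0.13 (adjusted p = 0.722, limma). DSN1, the MIS12 complex subunit that Aurora B phosphorylates to control docking at the centromere, stood at 26.9 and 24.5 FPKM in NC and at 21.5 and 22.3 FPKM in SKA3-KD. Its groups did not overlap, and the difference of -0.22 did not pass (95% interval -0.40 to -0.04, unadjusted p = 0.0276, adjusted p = 0.113, limma). MIS12 shares 301 exon bases with DERL2 on the opposite strand in GENCODE 29, and whether reads were counted by strand is not given in the sources used here. DERL2 had a log2 difference of -0.38 (adjusted p = 0.0344, limma), so the value of MIS12 is uncertain to the extent that reads from that stretch were counted for either gene.

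Across the 10 genes 1 was lower and 2 were higher past an adjusted p of 0.05, where 6.11% and 6.16% of all genes tested were lower and higher. The difference lay above 0 in 5 of the 10 genes, and in 51.6% of all genes tested. The median difference of the 9 genes other than SKA3 was 0.10, beside 0.01 for all genes tested. The groups did not overlap in 6 of the 10 genes, lower in 2 and higher in 4. Among all genes tested they did not overlap in 61.6%, with 29.2% lower and 32.3% higher, so the share in the 10 genes was near that background. With 2 libraries a group, the smallest p that exact permutation of a single gene allows is 0.333, and the p-values printed here therefore depend on the variance that limma shares between genes. The calls of SKA2 and NUF2 were lost without any of the 4 libraries in turn, with adjusted p-values of 0.0909 to 0.156 for SKA2 and 0.0725 to 0.0942 for NUF2, and the differences themselves stayed between 0.30 and 0.38 and between 0.45 and 0.53. They were also lost without the filter on low FPKM (0.0756 and 0.0548), and that of SKA2 without the mean-variance trend (0.0703).

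**Figure D2:**
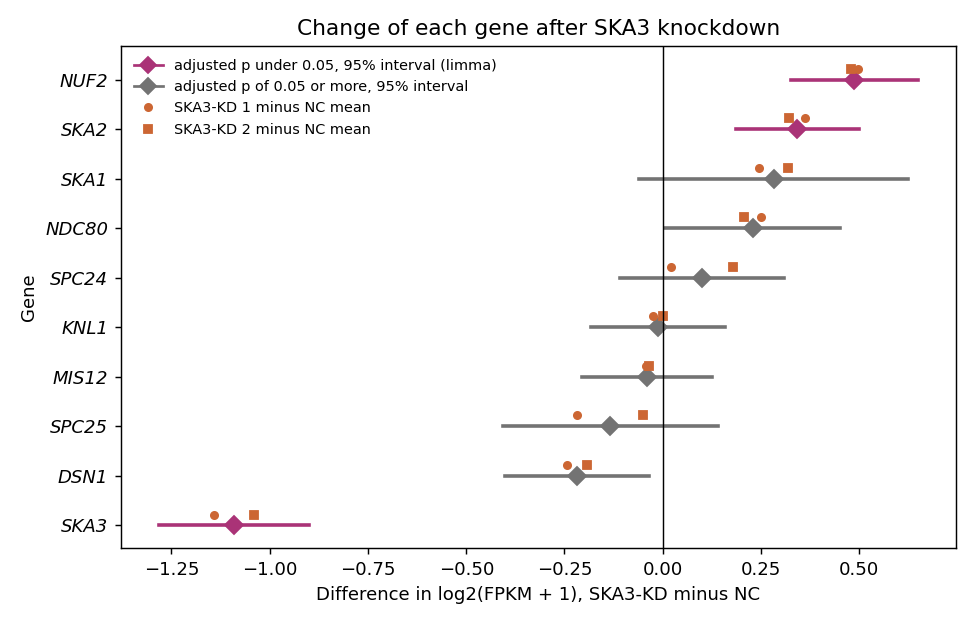
Difference in log2(FPKM + 1) between SKA3-KD and NC (horizontal axis) for the 10 genes, ordered by size. Diamonds and bars are the limma estimate and its 95% interval, purple where the adjusted p is under 0.05, and small orange symbols are the SKA3-KD libraries minus the NC mean. NUF2 and SKA2 lie to the right of 0 with their whole interval, and SKA3 lies at -1.09. The intervals of NDC80 (0.01 to 0.45) and DSN1 (-0.40 to -0.04) also exclude 0, but neither gene passed the adjusted threshold. SKA1, SPC24, SPC25, KNL1 and MIS12 have intervals that include 0.

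FPKM is a level per length of transcript, so the levels of the 10 genes can be set side by side within the limits of the exon lengths the authors used. In NC the order by mean FPKM was SKA2 (29.1), DSN1 (25.7), SPC24 (17.0), NUF2 (15.3), MIS12 (14.4), SPC25 (11.2), NDC80 (10.2), KNL1 (9.82), SKA3 (9.52) and SKA1 (6.33). The libraries of NUF2 and MIS12 overlapped in level, and so did each pair of neighbours from SPC25 down to SKA3, so their order is not resolved. In SKA3-KD the order was SKA2 (37.1), DSN1 (21.9), NUF2 (21.8), SPC24 (18.3), MIS12 (14.0), NDC80 (12.1), SPC25 (10.1), KNL1 (9.73), SKA1 (7.85) and SKA3 (3.94). There the libraries of DSN1 and NUF2 overlapped, and those of SPC25 and KNL1. SKA3 moved from the ninth place to the last, below SKA1 in both libraries.

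The balance of transcripts inside the SKA complex differed between the groups. The FPKM ratio of SKA1 to SKA3 was 0.771 and 0.561 in NC and 2.02 and 1.96 in SKA3-KD. That of SKA2 to SKA3 was 3.18 and 2.93 in NC and 9.99 and 8.89 in SKA3-KD. The ratio of SKA2 to SKA1 overlapped between the groups, at 4.13 and 5.21 in NC and 4.94 and 4.53 in SKA3-KD. The ratios that separated the groups were those that include SKA3, whose knockdown is what defines the groups.

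For the NDC80 complex, ratios were taken for some pairs of subunits only. Among these, NUF2 over SPC25 alone sets the microtubule end against the chromosome end. NUF2 over NDC80 was 1.43 and 1.56 in NC and 1.78 and 1.82 in SKA3-KD, and SPC24 over SPC25 was 1.45 and 1.60 in NC and 1.82 and 1.80 in SKA3-KD. NUF2 over SPC25 ran from 1.298 and 1.45 in NC to 2.33 and 2.02 in SKA3-KD. The ratio of DSN1 to MIS12 was 1.81 and 1.75 in NC and 1.54 and 1.59 in SKA3-KD. None of these ratios overlapped between the groups, and the other pairs of subunits were not taken. They are descriptions of 2 libraries a group with no test. The levels of single genes did not overlap in 61.6% of genes tested, and no such share was taken for ratios of gene pairs.

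**Figure D3:**
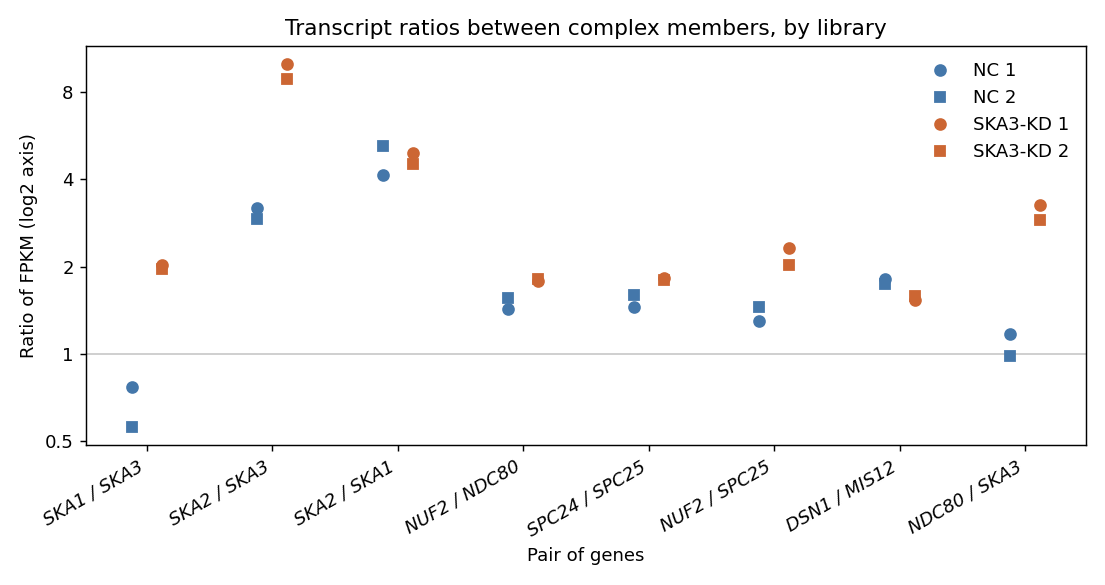
Ratio of the FPKM of 2 genes (vertical axis, log2 scale) for 8 pairs, in the 2 NC libraries (blue) and the 2 SKA3-KD libraries (orange). Ratios over SKA3 are about 3 times higher in SKA3-KD, SKA2 over SKA1 overlaps between the groups, and NUF2 over SPC25 lies at 2.02 or more in SKA3-KD and at 1.45 or less in NC.

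The MIS12 complex has 2 further subunits, and KNL1 has a partner, ZWINT, that links it to the corona. NSL1, a MIS12 complex subunit, stood at 12.2 and 12.01 FPKM in NC and at 8.38 and 6.32 FPKM in SKA3-KD. It fell by 0.66 in log2(FPKM + 1), with a standard error of 0.13 (adjusted p = 0.0383, limma), and the SKA3-KD libraries lay further apart than the NC libraries. PMF1, the remaining subunit, stood at 7.83 and 7.28 FPKM in NC and at 9.09 and 7.34 FPKM in SKA3-KD (difference 0.10, adjusted p = 0.582, limma). ZWINT stood at 86.6 and 83.5 FPKM in NC and at 94.0 and 92.6 FPKM in SKA3-KD (difference 0.13, adjusted p = 0.171, limma), a level above that of any of the 10 genes.

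Proteins that work on either side of the complexes were followed by lists, each to be read against the 6.16% of all genes tested that were higher and the 6.11% that were lower by limma, and against 13.4% higher and 1521 of 12645 genes lower by voom on the recovered reads. Of 8 genes of the corona and of the RZZ complex, which brings dynein and checkpoint proteins to unattached kinetochores, 2 rose and none fell past the threshold by limma, 4 were higher and none lower by voom, and the median difference was 0.26. SPDL1, the dynein adaptor of the kinetochore, rose by 0.54 from 30.3 and 28.3 FPKM to 43.8 and 42.3 FPKM (adjusted p = 0.015, limma). NDE1, another dynein regulator, rose by 0.45 (adjusted p = 0.0303, limma), and the kinetochore motor CENPE (0.35, adjusted p = 0.107, limma) was called by voom alone. Of 8 partners on the microtubule side, 3 rose and none fell by limma, with the same counts by voom and a median of 0.16. KNSTRN (0.51, adjusted p = 0.0182) and SPAG5 (0.35, adjusted p = 0.0485), which form the astrin complex at attached kinetochores, and the microtubule polymerase CKAP5 (0.38, adjusted p = 0.0341) were the 3, all by limma. MAPRE1, an end-binding protein, was at -0.11 (adjusted p = 0.26, limma).

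On the chromosome side, 13 of 14 genes of the inner kinetochore passed the filter and none was called in either direction by limma. Voom on the recovered reads called 1 of them higher. Their median was 0.08, beside 0.01 for all genes tested. Of 12 kinases, phosphatases and regulators that act on the NDC80 or SKA complexes, 5 rose and none fell by limma, where 6.16% of all genes tested were higher, with a median of 0.26. By voom 7 were higher and 1 was lower, the phosphatase subunit PPP1CB (log2 difference -0.35, adjusted p = 0.00249, limma voom). PLK1 rose by 0.76 from 23.8 and 25.8 FPKM to 42.4 and 42.8 FPKM (adjusted p = 0.0103, limma). BIRC5 (0.71, adjusted p = 0.0212) and CDCA8 (0.48, adjusted p = 0.0196), the targeting subunits of the Aurora B complex, rose as well (limma). The checkpoint kinase BUB1 (0.40, adjusted p = 0.0257, limma) and cyclin B1, CCNB1 (0.64, adjusted p = 0.015, limma), were the remaining 2. CDK1, the kinase that phosphorylates SKA3 for its binding to NDC80, had a difference of -0.04 (adjusted p = 0.808, limma), and AURKB had a difference of 0.26 (adjusted p = 0.0831, limma).

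Several of the 10 genes, NDC80, NUF2 and SKA3 among them, are known to peak in G2 and M, and in bulk RNA a larger share of cells in a phase and more RNA per cell cannot be told apart. Genes of the cell cycle were therefore read beside them. Of 15 genes of the G2 and M phases outside the lists above, 10 rose and none fell past the threshold by limma, and 12 were higher and none lower by voom, where 6.16% and 13.4% of all genes tested were higher. All 15 lay above 0 with no overlap between the groups, beside 51.6% of all genes above 0 and 32.3% higher with no overlap. Their median difference was 0.43, and against the NC mean the first SKA3-KD library had a median of 0.46 and the second one of 0.38. AURKA (0.54, adjusted p = 0.0127), CDC20 (0.54, adjusted p = 0.0114), TPX2 (0.53, adjusted p = 0.0138) and HMMR (0.58, adjusted p = 0.0237) were among them (limma). Of 15 tested genes of the S phase, RRM2 (0.54, adjusted p = 0.0129, limma) and MCM6 (0.51, adjusted p = 0.023, limma) rose, none fell by limma and the median was -0.09. Voom called the same number higher and 2 lower. NUF2, with 0.49, was thus above the median of the G2 and M list, and SKA2 and NDC80 were below it. The part of cell-cycle phase in the values of the 10 genes was not tested.

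**Figure D4:**
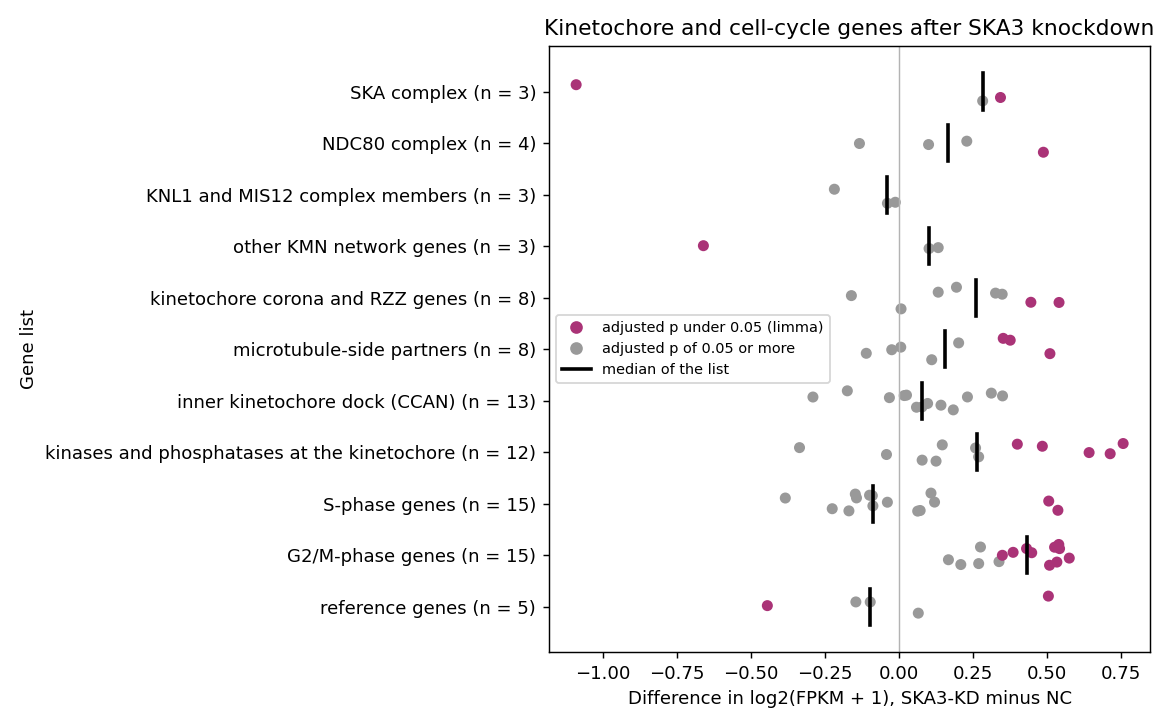
Difference in log2(FPKM + 1) between SKA3-KD and NC (horizontal axis) for each tested gene of 11 lists (vertical axis, n is the number tested). Points are genes, purple where the adjusted p is under 0.05, and black lines are medians. The 15 genes of the G2 and M phases all lie above 0 with a median of 0.43, while the medians of the SKA complex, the NDC80 complex and the KNL1 and MIS12 members are 0.28, 0.16 and -0.04.

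The promoters of the 10 genes were read because mitotic genes share short promoter elements, among them the cell-cycle genes homology region (CHR, letters TTTGAA), through which cell-cycle repressor and activator complexes act, and the CCAAT box. The sequences are from RefSeq on GRCh38.p14, from 250 bases before to 50 bases after the start, and 9 of the 10 genes matched, all but KNL1. On either strand TTTGAA was present in SKA1, SKA3, NDC80, NUF2 and SPC25, or 5 of 9, and in 15.2% of all 35116 promoters of this length. In each of these 5 genes a match began within 40 bases of the start, a limit chosen after the positions were seen, which held for 3.98% of all promoters. The windows of 30 bases below are shown because the element lies close to the start in 5 of the 10 genes, the knocked-down gene among them. They are on the strand of the gene, with the match in capitals, and TTCAAA is the same element read on the other strand.
SKA3: ccggcgccgagaTTCAAActagtggcggga
NDC80: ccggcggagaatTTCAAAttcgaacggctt
SPC25: aagtgcactaggTTTGAAatcggaaagttg
NUF2: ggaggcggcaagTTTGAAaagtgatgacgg
SKA1: ggcgcggcgggcggTTTGAAttttgcttac
The windows lie at chr13:21176538-21176567 (SKA3, minus strand), chr18:2571542-2571571 (NDC80, plus strand), chr2:168890416-168890445 (SPC25, minus strand), chr1:163321958-163321987 (NUF2, plus strand) and chr18:50375066-50375095 (SKA1, plus strand). The match begins 3 bases before the start in SKA3, NDC80 and SPC25, at base 17 after it in NUF2 and at base 35 after it in SKA1. NDC80 also holds the related letters TTCGAA at base 4 after the start, overlapping no base of the first match, which 1.45% of promoters hold. SPC25 holds a further TTTGAA that begins at position -247 from the start. Of the 4 genes other than SKA3, NUF2 rose, NDC80 and SKA1 had differences of 0.23 and 0.28 that did not pass the test, and SPC25 had one of -0.13 that did not pass either. Differences between these genes were not tested.

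SKA2, the other gene that rose, holds no TTTGAA in its window. It holds CCAAT 5 times within the 250 bases before its start, all on the strand of the gene. CCAAT on either strand was found in 34.6% of all promoters, and 5 or more within the 250 bases before the start in 0.319%. The limit of 5 was taken from the count seen in SKA2 itself. The stretch lies on the minus strand at chr17:59155187-59155436 of GRCh38.p14 and is printed because of these repeats, which are in capitals.
SKA2: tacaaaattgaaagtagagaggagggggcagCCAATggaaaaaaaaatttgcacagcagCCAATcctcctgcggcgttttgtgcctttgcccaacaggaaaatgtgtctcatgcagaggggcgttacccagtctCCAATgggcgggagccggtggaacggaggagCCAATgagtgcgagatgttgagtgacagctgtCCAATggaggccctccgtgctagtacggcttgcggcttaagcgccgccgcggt
SPC24, SPC25 and MIS12 also hold CCAAT on either strand, and none of these was called. The E-box letters CACGTG were found in none of the 9 genes and in 7.26% of all promoters. The letters of an E2F site, also searched for, were found in 1 of the 9 genes, MIS12, and in 3.31% of all promoters. These matches describe letters in a window and do not show that a factor binds there.

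The genes whose profile over the 4 libraries was nearest to that of SKA3, by Euclidean distance between log2(FPKM + 1) values centred on each gene's mean, were CLMP (distance 0.0907), P2RY6 (0.105), AKR1C2 (0.11), PTGS2 (0.112) and HPD (0.12). CLMP, an adhesion molecule, stood at 31.8 and 32.4 FPKM in NC and at 14.4 and 16.4 FPKM in SKA3-KD. PTGS2, the inducible cyclooxygenase, stood at 8.64 and 9.49 FPKM in NC and at 3.60 and 4.28 FPKM in SKA3-KD. AKR1C2 has near-identical paralogs, so its reads may not all be its own and its level is uncertain. With 4 libraries in 2 groups, likeness of this kind follows mainly from a similar difference between the groups.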

How the data were processed

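The authors deposited FPKM values for 4 libraries, which are already divided by gene length and library size, with 1 column per library. The submitters' processing notes name HISAT2, StringTie 1.3.1, Bowtie2 2.2.8, Cuffdiff 2.1.1 and the build hg19, without their order, and the annotation and strand setting are not given in the sources used here. Symbols and exon lengths came from gene name tables and GENCODE 29 (GRCh38). Groups came from the sample titles. SKA3-KD was compared with NC by limma 3.58.1 in R 4.3.3, a linear model with moderated variances and a mean-variance trend. The model was fitted to log2(FPKM + 1) of the 12645 genes whose mean FPKM reached 1, with no added scaling, and gave two-sided p-values with Benjamini-Hochberg adjustment and a threshold of 0.05. Low FPKM values are multiples of what 1 read is worth. Whole reads (tolerance 0.01 reads) were recovered in this way for 99.6% of genes above 0. For 68.1% this held with the GENCODE 29 length, all 10 genes among them. For 31.5% a length was searched for that made the values of the 4 libraries whole. The recovered reads summed to between 109% and 111% of the library sizes behind the FPKM values. These reads were used for depth and for limma voom with those library sizes. Replicates differed by more than sampling noise (chi-square over degrees of freedom, 3.67 for NC and 3.63 for SKA3-KD) and were kept as separate samples.

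The genes named were the 10 genes, the members of the lists past the threshold, PMF1, NSL1 and ZWINT, the 5 profiles nearest to SKA3 and genes overlapping the 10, of which 1 is not reported here. Of the lists, all other members named served as contrast and were chosen after their values were seen. The 10 genes and the lists were chosen with earlier results of these data known. The steps were tested on simulated data, where small changes were often missed and some unchanged genes were called. A gene that was not called is therefore not shown to be unchanged, and a call may be false. UHRF1, CD3E and PECAM1 of the lists were not analysed here. Remaining steps used Python 3.11.15 with numpy 2.4.6, pandas 2.3.3 and matplotlib 3.10.9.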

Additional observations from a re-analysis of the deposited data

How the results depend on the processing

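With all 4 libraries, SKA3 stayed lower past the threshold under each of 9 alternatives, with differences from -1.26 to -1.09 on the log2 scale. Leaving out each library gave -1.14 to -1.04, and the call was lost without either NC library (-1.11 and -1.07). With robust eBayes, voom on the recovered reads, quantile normalization, median-of-ratios scaling, a pseudocount of 0.1 and a filter at a mean FPKM of 5, 1 of the 10 genes was lower and 2 were higher, as reported. Of the 10 genes, 0 were higher without the filter on low FPKM and 1 without the trend, and leaving out a library gave 0 to 0 higher and 0 to 1 lower. A fit with each library left out has few residual degrees of freedom, and the lone library is assumed to vary like the other group. Over all genes, 772 were lower and 779 higher. These counts were 81 and 48 without the filter, 381 and 312 without the trend, and 1521 and 1697 with voom, and between 0 and 135 lower and 0 and 46 higher with a library left out. KNL1 and MIS12, neither of them called, changed sign without NC 1. Over the libraries left out, KNL1 ranged from -0.0497 to 0.0246 and MIS12 from -0.0810 to 0.00251. The replicate numbers are shared by the groups, but nothing says that a number marks a shared culture, and the deviations of the replicates numbered 1 correlated by 0.0973 over genes. With the replicate number as a block, 965 genes were lower and 1002 higher, and of the 10 genes 1 was lower and 2 were higher, with differences of -1.09 for SKA3, 0.34 for SKA2 and 0.49 for NUF2.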

Other observations

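In 9 of the 10 genes the FPKM of NC 2 was below that of NC 1, all but SKA3, while this held for 52.4% of all genes tested. Among 5 genes commonly used as references, ACTB rose from 1463 and 1497 FPKM in NC to 2079 and 2121 FPKM in SKA3-KD (difference 0.50, adjusted p = 0.0122, limma). PPIA fell by 0.44 (adjusted p = 0.0166, limma). TBP, HPRT1 and GUSB were not called. The median-of-ratios scaling factors of the libraries lay between 0.993 and 1.01. Both ACTB and PPIA have many processed pseudogenes, so reads may have been divided between copies and their levels are uncertain.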
